A study of Mus musculus with 10 samples.

Results

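The B cell receptor and its proximal signalling machinery were followed here through 9 genes, chosen by symbol: Cd79a, Cd79b, Cr2, Lyn, Syk, Btk, Blnk, Bank1 and Plcg2. All 9 were found among the 55492 gene symbols of the count table, and all 9 passed the low-count filter that left 21010 genes for testing. RNA-seq libraries came from 4 groups of mouse spleen B cells. Naive WT (2 libraries) and naive KO (2) were naive B cells on day 0, and iGCB WT (3) and iGCB KO (3) were induced germinal center B cells on day 4, obtained by growing B cells in the 40-LB system, in which feeder cells supply CD40 ligand and BAFF. KO mice were Pcbp1 fl/fl with Mb1-Cre, so that Pcbp1, an RNA-binding protein that recognises C-rich sequences, was deleted in the B lineage. The labels give the controls only as WT and do not say whether they carried Mb1-Cre or the floxed allele, nor the age or strain of the mice. They also do not say whether each library is a separate animal, and the spread behind each p-value, taken between these libraries, may be technical. Mb1-Cre is a knock-in at Cd79a, the gene formerly called mb-1, and interrupts the coding sequence of that allele. The effect of the Cre allele on Cd79a and the effect of Pcbp1 loss on it therefore cannot be told apart in this design. As the Cre status of the controls is not given, the same holds for KO against WT differences in the other genes.

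When antigen binds membrane immunoglobulin, the Src-family kinase Lyn phosphorylates the tails of the signalling chains Ig-alpha (Cd79a) and Ig-beta (Cd79b), which then recruit and activate the kinase Syk. Syk phosphorylates the adaptor Blnk, which brings the kinase Btk to phospholipase C gamma 2 (Plcg2), the enzyme that starts calcium release. Complement receptor 2 (Cr2) lowers the threshold of the receptor as part of its coreceptor, and Bank1 is a scaffold that binds Lyn and the inositol trisphosphate receptor.

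The libraries held 33400672 to 63576147 counts, and expression is given in CPM, counts scaled to TMM-normalised library totals, as mean ± SD over the 2 naive or 3 iGCB libraries of a genotype. The targeted gene, Pcbp1, fell from 267 ± 103 to 2.75 ± 0.884 CPM in iGCB KO against WT (edgeR adjusted p = 0.00151). The naive means were 118 ± 48.5 CPM (WT) and 2.39 ± 2.75 CPM (KO), where the log2 fold change of -5.59 (SE 0.82) had an adjusted p of 0.0561. Summed B cell markers (9 of 9 genes found, such as Ms4a1 and Pax5) lay at 8042 to 9465 CPM in naive WT, 7012 to 7097 in naive KO, 3712 to 3913 in iGCB WT and 4291 to 4762 in iGCB KO, so that the genotypes did not overlap at either stage. Summed germinal center markers (8 of 8) lay at 112 to 260 CPM in naive and 968 to 1224 CPM in iGCB libraries. Naive WT 1 and naive KO 1 stood apart by sex, with Xist at 1546 and 1827 CPM against 0 to 2.40 CPM in the other 8 libraries. Naive values are therefore also given within the female pair (WT 1 and KO 1) and the male pair (WT 2 and KO 2), a pairing by sex and not by animal.

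Per kilobase of the union of annotated exons, the 2 signalling chains had the highest values of the 9 genes in each group. In naive WT the order was Cd79a (878 ± 104 CPM per kb, n = 2), Cd79b (588 ± 324), Syk (241 ± 47.5), Lyn (146 ± 42.4), Bank1 (139 ± 40.9), Plcg2 (139 ± 30.1), Blnk (128 ± 9.80), Cr2 (113 ± 36.7) and Btk (101 ± 31.1). Cd79a and Cd79b overlapped there, as did each neighbouring pair from Lyn down to Btk. In iGCB WT the order was Cd79a (546 ± 16.9 CPM per kb, n = 3), Cd79b (468 ± 47.3), Plcg2 (80.8 ± 6.82), Blnk (33.7 ± 4.37), Lyn (24.98 ± 3.72), Btk (22.5 ± 1.97), Syk (15.7 ± 2.60), Bank1 (1.86 ± 0.547) and Cr2 (0.645 ± 0.123). Of these neighbours, Blnk and Lyn overlapped, as did Lyn and Btk, and the other pairs did not. By this measure Syk stood behind the 2 chains in naive WT and below 6 of the members in iGCB WT, where Plcg2 took its place. In both KO groups the first 2 places were exchanged: Cd79b was at 506 ± 63.6 and Cd79a at 290 ± 8.56 CPM per kb in naive KO, against 645 ± 91.8 and 268 ± 33.1 in iGCB KO, with no overlap between the 2 genes in either group. Bank1 and Syk, which were separate in iGCB WT, overlapped in iGCB KO (13.7 ± 2.08 and 14.4 ± 2.33 CPM per kb). These orders depend on the length used. The longest protein-coding transcript equals the exon union for Cd79a (1457 bases) and Plcg2 (4298 bases). It is shorter for Blnk (2097 against 5991), Bank1 (3268 against 7486) and Syk (5363 against 9362). An order by that length was not taken and could differ, also in the places of the 2 chains.

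**Figure D1:**
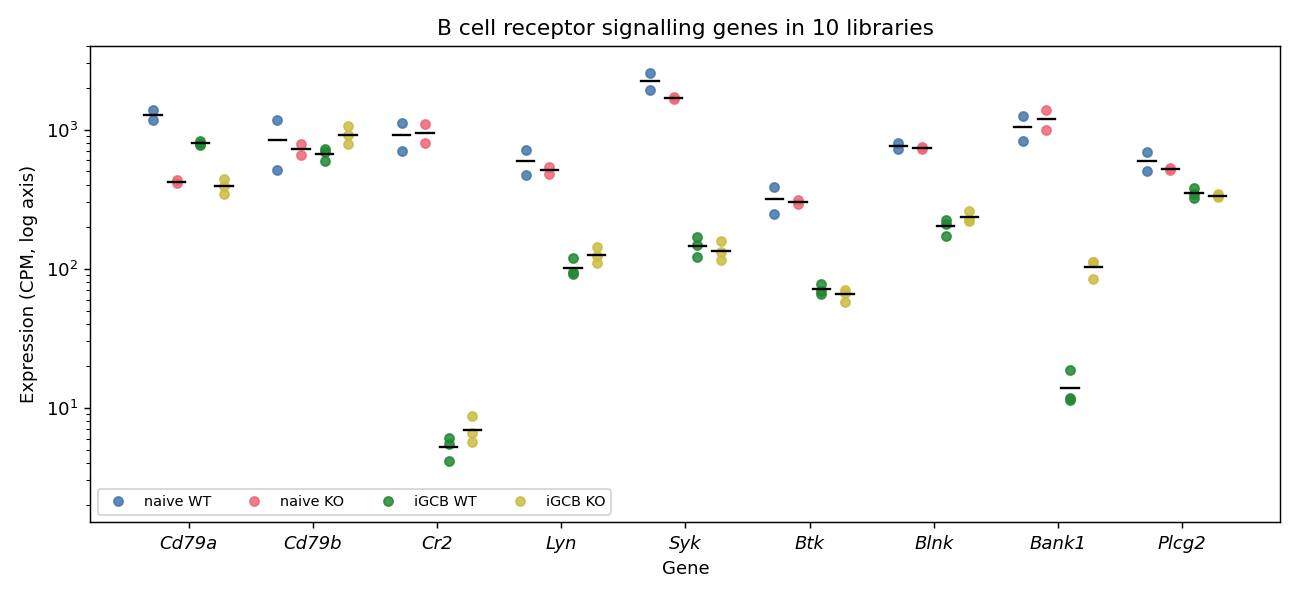
Expression of the 9 genes in CPM (log axis, not scaled to gene length), with 1 point for each library and a black line at the group mean; colours mark naive WT, naive KO, iGCB WT and iGCB KO. Cd79a is lower in both KO groups than in their WT groups, and Bank1 lies at 84.4 to 112 CPM in iGCB KO against 11.4 to 18.6 CPM in iGCB WT.

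The first comparison set KO against WT in naive B cells. Cd79a fell and the other 8 members did not pass the threshold, an adjusted p under 0.05 in edgeR's quasi-likelihood test with Benjamini-Hochberg adjustment over all 21010 genes. This 1 of 9 stands against 0.0476% of all genes called in the same comparison, and 0.0333% called lower. The members' median log2 fold change was -0.19, against -0.05 over all genes.

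Cd79a (ENSMUSG00000003379.7, mm10 chromosome 7, 24897381 to 24902197, plus strand) was at 1387 and 1173 CPM in naive WT 1 and 2 and at 432 and 414 CPM in naive KO 1 and 2. Both KO libraries lay far below both WT libraries. Its log2 fold change was -1.60 (SE 0.18, edgeR adjusted p = 0.0126), so that the naive KO level was 33.1% of WT. The log2 ratio was -1.68 in the female pair and -1.501 in the male pair. With each library left out in turn the fold change stayed between -1.72 and -1.48, but the adjusted p rose to 0.0655 without naive KO 1, 0.0537 without naive KO 2 and 0.0653 without iGCB KO 1, while fitting just the 4 naive libraries gave -1.55 with an adjusted p of 0.99999.

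The promoter of Cd79a is shown because its locus carries the Cre and because the gene differed at both stages. That of Bank1 is shown because Bank1 moved the other way in iGCB cells. Both windows are the 250 bases before the RefSeq start in GRCm38.p6 (mm10). For Cd79a the last 116 of them lie inside the gene as GENCODE M21 annotates it, and only the 134 bases before that gene start are shown, at chr7:24897247-24897380 on the plus strand. The Bank1 window is shown whole, at chr3:136326067-136326316 on the minus strand. They are printed 5′ to 3′ with capitals at GGAA on either strand (TTCC as printed), the core bound by Ets factors.
Cd79a: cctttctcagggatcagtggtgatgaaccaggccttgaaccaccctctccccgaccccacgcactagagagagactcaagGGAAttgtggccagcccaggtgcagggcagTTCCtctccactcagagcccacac
Bank1: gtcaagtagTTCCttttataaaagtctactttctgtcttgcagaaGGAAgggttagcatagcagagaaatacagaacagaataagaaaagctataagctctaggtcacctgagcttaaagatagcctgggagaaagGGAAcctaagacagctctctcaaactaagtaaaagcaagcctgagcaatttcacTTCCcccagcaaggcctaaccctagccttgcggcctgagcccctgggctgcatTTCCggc
The whole Cd79a window held 4 such matches, 2 of them in the bases shown, and the Bank1 window 5, and 93.4% of the 32851 RefSeq promoter windows of that length held at least 1. The E-box letters CANNTG occurred 2 times in the whole Cd79a window and 1 time in the Bank1 window (66.2% of windows held them). The letters CCCNNGGG are a consensus core of Ebf1 sites. They occurred 0 times in the whole Cd79a window and 1 time in the Bank1 window (11.8% of windows). Only exact matches were counted, so 0 matches does not show that the Cd79a window lacks an Ebf1 site. Binding of these factors was not tested. Of the 9 genes, 7 had a promoter entry, and Cd79b and Lyn had none.

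Arhgef1, a guanine nucleotide exchange factor for RhoA that begins 0.715 kb from Cd79a, had log2 fold changes of -0.14 in naive cells and -0.08 in iGCB cells (edgeR adjusted p = 1 and 0.963). Of the 10 nearest tested genes, which reach to 259 kb, 0 passed the threshold at either stage in edgeR, beside 0.0476% of all genes in naive and 1.27% in iGCB cells, shares at which this count says little about the locus. DESeq2, which gave an adjusted p for 8 of them in iGCB cells, also called 0. At an unadjusted p under 0.05 edgeR had 1 in naive and 2 in iGCB cells. Their median log2 fold change was -0.03 in naive and 0.36 in iGCB cells.

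**Figure D2:**
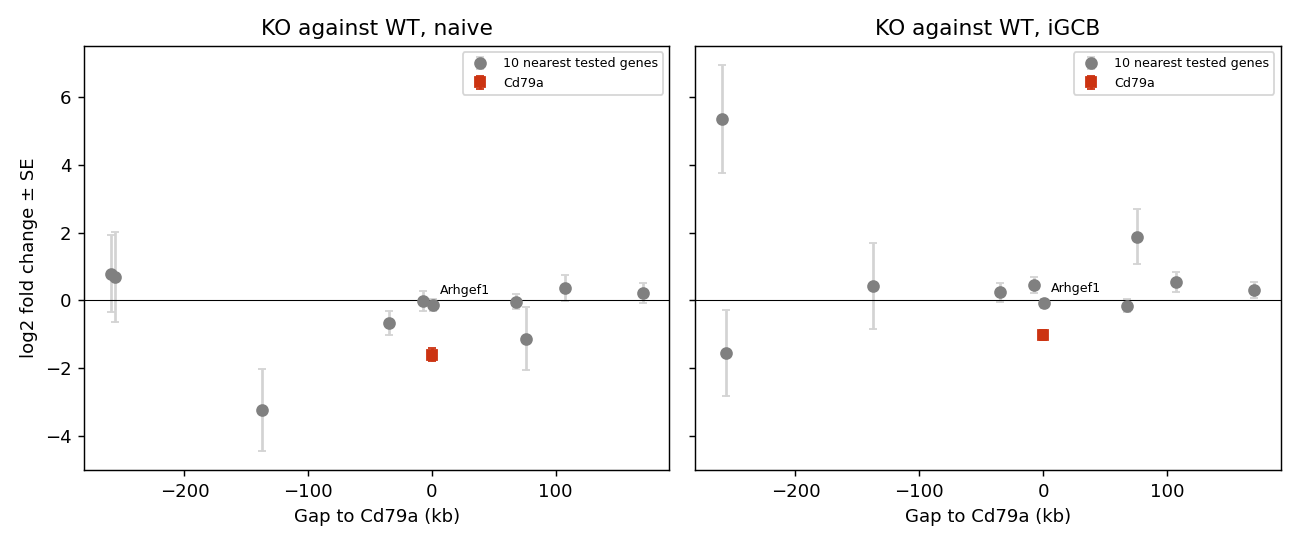
log2 fold change of KO against WT with its SE for Cd79a (red square) and the 10 nearest tested genes (grey points) by their gap to Cd79a in kb, in naive and iGCB cells. Cd79a lies at -1.60 and -1.03, and its nearest neighbour Arhgef1 lies near 0 at both stages; the wide bars belong to genes of low expression.

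Cd79b (ENSMUSG00000040592.11, chromosome 11, 106311341 to 106314762, minus strand), the partner chain of Cd79a, was at 1170 and 514 CPM in naive WT and at 788 and 660 CPM in naive KO. The KO libraries lay between the WT libraries, and the log2 fold change was -0.22 (SE 0.31, edgeR adjusted p = 1). Its sign differed between the female pair (-0.57) and the male pair (0.36). Because the 2 chains pair with each other, their ratio per kb was taken within each library. Cd79a over Cd79b was 1.16 and 2.24 in naive WT and 0.538 and 0.617 in naive KO, with no overlap, a difference of -1.49 on the log2 scale. The exact permutation test, two-sided, gave p = 0.333, the smallest p that 2 libraries against 2 allow. Cd79a alone already separated the naive genotypes, so the ratio largely restates that difference and is not a separate result. The 2 WT ratios were far apart, and the difference was -1.11 in the female and -1.86 in the male pair, -1.96 without naive WT 1 and -1.01 without naive WT 2.

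Among the other members in naive cells, Syk (ENSMUSG00000021457.14, chromosome 13, 52583173 to 52648792) also had groups that did not overlap, which makes 2 of 9 members against 24.2% of all genes. Syk was at 2571 and 1942 CPM in WT and at 1663 and 1727 CPM in the KO libraries (log2 fold change -0.41, SE 0.23, edgeR adjusted p = 1). Cr2 (ENSMUSG00000026616.15, chromosome 1, 195136811 to 195176716), which marginal zone B cells carry at high levels, was at 702 and 1124 CPM in WT and 797 and 1094 CPM in KO (0.05, SE 0.28). Bank1 (ENSMUSG00000037922.13, chromosome 3, 136053363 to 136326066) was at 824 and 1257 CPM in WT and 990 and 1389 CPM in KO (0.19, SE 0.29). For both genes the spread between libraries of 1 genotype was wider than the gap between genotypes, and library 2 was the higher of each genotype. Within pairs the log2 ratio of KO over WT was 0.26 (female) and 0.14 (male) for Bank1, and 0.18 and -0.04 for Cr2. The remaining kinases, adaptor and effector had log2 fold changes of -0.22 for Lyn (SE 0.23), -0.07 for Btk (SE 0.21), -0.06 for Blnk (SE 0.18) and -0.19 for Plcg2 (SE 0.18).

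For several of these the 2 pairs gave different signs. In the female pair the log2 ratios of KO over WT were -0.63 for Syk, -0.42 for Lyn, -0.31 for Btk and -0.37 for Plcg2. In the male pair they were -0.17, 0.03, 0.23 and 0.03. Lyn, Syk, Btk and Plcg2 are also used by myeloid cells, whose 10 summed markers were at 289 and 231 CPM in naive WT and at 365 and 55.1 CPM in naive KO, with 0 of the 10 at 0 in either group. Follicular markers summed to 6008 and 4814 CPM in WT and 6111 and 5279 CPM in KO, and marginal zone markers without Cr2 to 431 and 572 CPM and to 433 and 496 CPM. Summed B cell markers were lower in both naive KO libraries, as was Cd79a. The part of these cell types in the naive values was not tested. In bulk RNA, fewer cells of a type and less RNA per cell cannot be told apart.

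The second comparison set KO against WT in iGCB cells. Here 2 of 9 members passed the threshold in opposite directions: Bank1 rose and Cd79a fell, against 1.27% of all genes called (0.343% higher, 0.923% lower). The members' median log2 fold change was 0.22, against 0 over all genes.

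Bank1 was at 18.6, 11.7 and 11.4 CPM in iGCB WT 1, 2 and 3 (420 to 638 counts) and at 84.4, 111 and 112 CPM in iGCB KO 1, 2 and 3 (2962 to 3805 counts). The lowest KO library lay well above the highest WT library. The log2 fold change was 2.88 (SE 0.26, edgeR adjusted p = 0.00109), a 7.37-fold higher level. It passed the threshold in all 17 alternatives, and leaving out 1 library at a time gave 2.76 to 3.15. Of the 10 nearest tested genes, which reach to 617 kb from Bank1, 0 passed the threshold in edgeR, beside the same 1.27% of all genes. At an unadjusted p under 0.05 edgeR had 2. DESeq2 called 1 of the 7 for which it gave an adjusted p. This was the pseudogene Gm5281, at 0.0359 CPM in iGCB WT and 0.471 CPM in iGCB KO. The antisense gene Gm31243 overlaps Bank1, and without a stated strand setting reads of the 2 cannot be told apart, but it was listed at 0 in each iGCB library. Ppp3ca, a calcineurin subunit 344 kb away, was at 0.41 (edgeR adjusted p = 0.487).

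Cd79a was at 791, 822 and 773 CPM in iGCB WT and at 391, 438 and 342 CPM in iGCB KO. The groups were far apart relative to the spread within them. The log2 fold change was -1.03 (SE 0.15, edgeR adjusted p = 0.00794), a KO level of 49.1% of WT. The adjusted p rose to 0.0556 without iGCB KO 1 and 0.0714 without iGCB KO 3, where the fold change was -1.03 and -0.94.

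Cd79b went the other way without passing the threshold. It was at 687, 728 and 596 CPM in iGCB WT and at 916, 1057 and 795 CPM in iGCB KO, so that the groups did not overlap, which held for 3 of 9 members and for 20.5% of all genes. Its log2 fold change was 0.46 (SE 0.26, edgeR adjusted p = 0.635). Fitted on the 6 iGCB libraries alone, and in the other alternatives, the adjusted p stayed at or above 0.102. The ratio of Cd79a to Cd79b per kb was 1.13, 1.11 and 1.27 in the 3 WT libraries and 0.419, 0.407 and 0.422 in the 3 KO libraries. These ratios separated the genotypes with little spread within each, by -1.49 on the log2 scale. The exact permutation test, two-sided, gave p = 0.1, the smallest that 3 against 3 allow. As in naive cells, Cd79a alone already separated the genotypes, so the ratio is not a separate result. Leaving out 1 iGCB library gave -1.53 to -1.43.

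**Figure D3:**
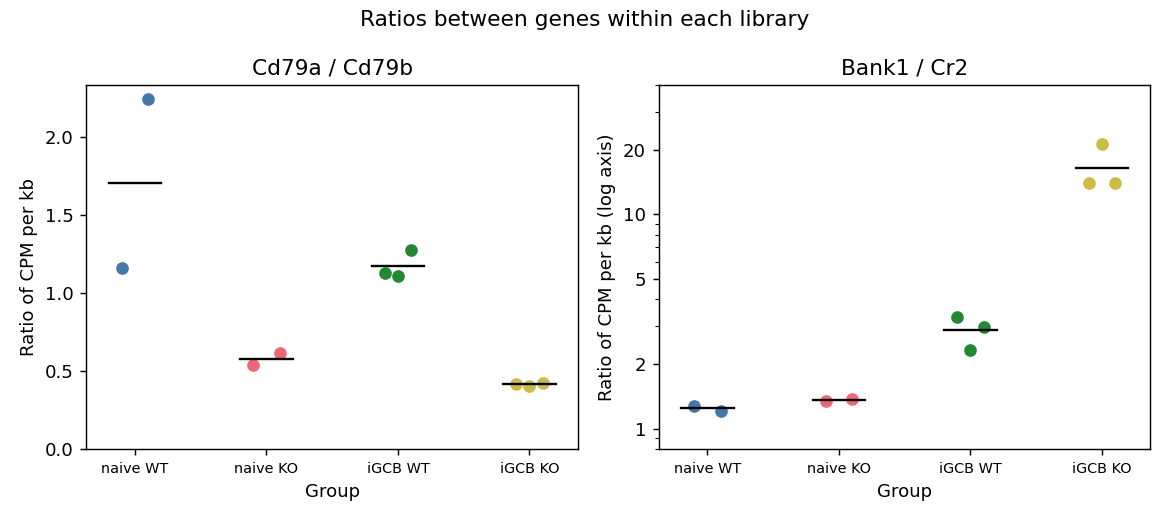
Ratios of CPM per kb within each library (points, with a line at the group mean): Cd79a over Cd79b on a linear axis and Bank1 over Cr2 on a log axis. The ratio of the 2 chains lies at 0.407 to 0.617 in the 5 KO libraries and at 1.11 to 2.24 in the 5 WT libraries, and Bank1 over Cr2 lies at 14.0 to 21.3 in iGCB KO against 2.32 to 3.31 in iGCB WT.

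The other 6 members in iGCB cells overlapped between genotypes. Cr2 was at 6.10, 5.46 and 4.14 CPM in WT and at 6.53, 5.64 and 8.65 CPM in KO, low and overlapping (log2 fold change 0.41, SE 0.24, edgeR adjusted p = 0.676). Bank1 and Cr2 had the largest stage differences of the 9 members in WT cells, and their ratio per kb was taken in the same way. Bank1 over Cr2 was 3.31, 2.32 and 2.97 in the WT libraries and 14.0, 21.3 and 14.0 in the KO libraries (2.51 on the log2 scale, exact permutation p = 0.1, two-sided, the smallest possible). The Bank1 values alone already separated the genotypes, so this ratio restates that difference and is not a separate result. In naive cells the same ratio was 1.27 and 1.21 in WT and 1.35 and 1.38 in KO. The kinases Lyn, Syk and Btk had log2 fold changes of 0.30 (SE 0.19), -0.12 (SE 0.18) and -0.12 (SE 0.17), the adaptor Blnk 0.22 (SE 0.15) and the effector Plcg2 -0.05 (SE 0.15).

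Some markers of B cells and their states also differed between the iGCB genotypes. Summed general B cell markers were higher in each iGCB KO library (4291 to 4762 CPM) than in any iGCB WT library (3712 to 3913 CPM). Summed follicular markers (6 of 6 genes) lay at 1639 to 2114 CPM in iGCB WT and 2531 to 2833 CPM in iGCB KO, and summed plasma cell markers (7 of 7) at 2488 to 2714 and 1519 to 1752 CPM. The follicular sum was mostly Fcer2a (1479 ± 160 CPM in iGCB WT and 1909 ± 205 CPM in iGCB KO). Germinal center markers overlapped (1008 to 1224 and 968 to 1102 CPM). Myeloid markers were low (24.99 to 41.98 CPM in WT and 40.8 to 80.3 CPM in KO, with 1 of 10 at 0 in each group), and the fibroblast markers of the feeder overlapped (37.9 to 72.5 and 29.2 to 66.2 CPM). The part of these B cell states in the Bank1 and Cd79a values was not tested.

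**Figure D4:**
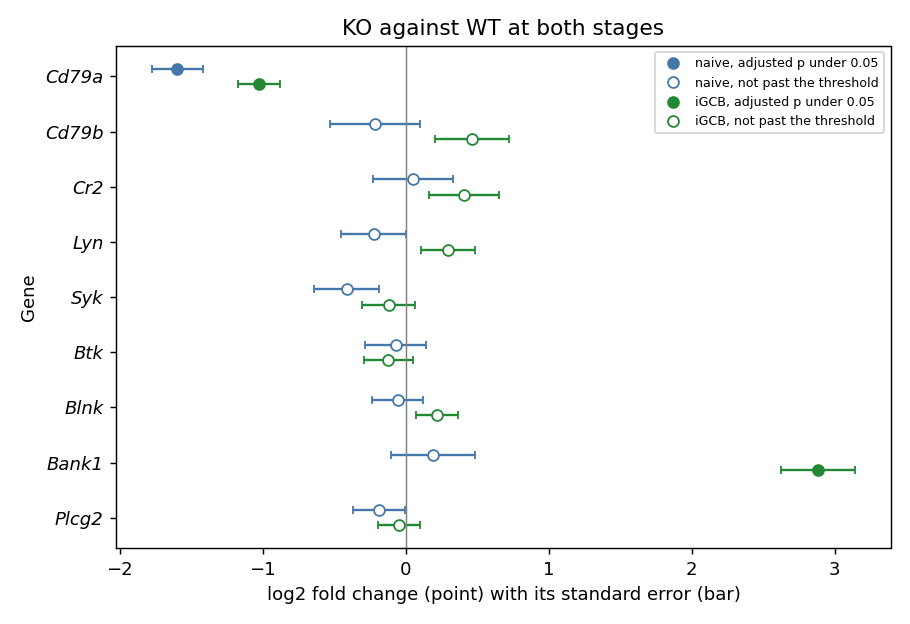
log2 fold change of KO against WT (points) with its standard error (bars) for the 9 genes in naive cells (blue) and iGCB cells (green); filled points have an adjusted p under 0.05. Cd79a is at -1.60 and -1.03, Bank1 is at 0.19 in naive and 2.88 in iGCB cells, and the other points lie between -0.41 and 0.46.

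Whether the KO effect differed between stages was tested as the difference of the 2 fold changes, iGCB minus naive. Of the 9 members 0 passed the threshold in edgeR, against 0.0333% of all genes. DESeq2 called 1, Bank1. At an unadjusted p under 0.05, edgeR called 2 of 9 against 6.06% of all genes. Bank1 came nearest, with a difference of 2.69 (SE 0.39, unadjusted p = 2.53e-05, adjusted p = 0.0532), the tenth smallest p of the 21010 genes. It passed in 7 of 16 alternatives, among them DESeq2 (2.68, adjusted p = 3.57e-07), the replicate block (2.70, adjusted p = 0.0160) and the male libraries alone (2.75, adjusted p = 0.0196), and its adjusted p ranged up to 0.224. For Cd79a the difference was 0.57 (SE 0.23, unadjusted p = 0.0294, adjusted p = 0.734), so 33.1% and 49.1% of WT were not shown to differ. Cd79b was at 0.68 (SE 0.41), Lyn at 0.52 (SE 0.29) and Cr2 at 0.36 (SE 0.37), with adjusted p from 0.904 to 0.9998. Without naive WT 1 the difference for Cd79b was -0.03.

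The third comparison set iGCB against naive WT cells. These groups also differ in time in culture and in contact with feeder cells, which cannot be told apart from activation. They differ in part by sex, as naive WT 1 was female by Xist. Of the 9 members 8 fell, and Cd79b did not pass the threshold, against 31.7% of all genes called lower (56.4% in either direction). The median log2 fold change was -2.16, against -0.25 over all genes. What was left of the naive level ranged from 0.573% for Cr2 to 62.1% for Cd79a.

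Cr2 went from 702 and 1124 CPM to between 4.14 and 6.10 CPM (log2 fold change -7.45, SE 0.31, edgeR adjusted p = 1.41e-07). Bank1 went from 824 and 1257 CPM to 11.4 to 18.6 CPM (-6.23, SE 0.31, adjusted p = 2.97e-07). These 2 were followed by Syk, which went from 2571 and 1942 CPM to 121 to 170 CPM (-3.94, SE 0.22, adjusted p = 4.54e-07), or 6.50% of the naive level. For these 3 genes each iGCB library lay far below both naive libraries.

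Lyn, the kinase upstream of Syk, fell by 2.55 on the log2 scale (SE 0.21), from 595 ± 173 to 102 ± 15.2 CPM. Btk (ENSMUSG00000031264.13, chromosome X, 134542336 to 134583570) fell by 2.16 (SE 0.19), from 318 ± 97.8 to 71.0 ± 6.20 CPM. Blnk (ENSMUSG00000061132.13, chromosome 19, 40928927 to 40994535), the adaptor between Syk and Btk, fell by 1.92 (SE 0.16), from 765 ± 58.7 to 202 ± 26.2 CPM. Their profiles over the 10 libraries were near each other: after centring each gene on its mean log2 CPM, the root mean square difference was 0.27 between Lyn and Btk, 0.29 between Btk and Blnk and 0.30 between Lyn and Blnk, the smallest distances among the 9 members.

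The effector and the chains changed less. Plcg2 (ENSMUSG00000034330.10, chromosome 8, 117498291 to 117635142) was at 687 and 504 CPM in naive WT and at 320, 378 and 344 CPM in iGCB WT (log2 fold change -0.78, SE 0.16, edgeR adjusted p = 0.00231). Cd79a fell by 0.69 (SE 0.16, adjusted p = 0.00402), and its adjusted p was 0.0643 in the fit with a replicate block. Cd79b was at -0.33 (SE 0.29, adjusted p = 0.339), and this value rested on single naive libraries: it was 0.38 without naive WT 1 and -0.81 (adjusted p = 0.00903) without naive WT 2. Side by side, the values for Lyn (ENSMUSG00000042228.14, chromosome 4, 3678115 to 3813122) and Syk were larger than those for the 2 chains, a difference that was not tested.

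In KO cells 7 of 9 members fell from naive to iGCB, against 31.4% of all genes called lower (56.2% in either direction). Cr2 changed by -7.09 (SE 0.31), Syk by -3.65 (SE 0.21), Bank1 by -3.54 (SE 0.28), Btk by -2.21 (SE 0.19), Lyn by -2.03 (SE 0.21), Blnk by -1.64 (SE 0.16) and Plcg2 by -0.64 (SE 0.16). Plcg2 lost the threshold with the replicate block (adjusted p = 0.0683). Bank1 in iGCB KO was at 8.61% of naive KO, and in iGCB WT at 1.34% of naive WT. Cd79a did not pass the threshold in KO cells, at 432 and 414 CPM in naive and 342 to 438 CPM in iGCB libraries (-0.12, SE 0.16, edgeR adjusted p = 0.546), and neither did Cd79b (0.35, SE 0.29, adjusted p = 0.318).

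**Figure D5:**
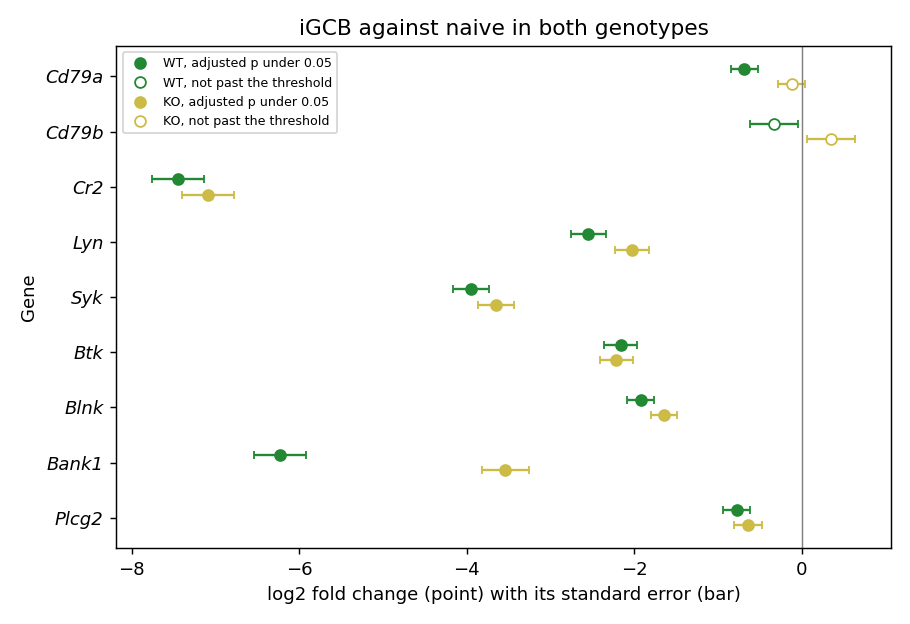
log2 fold change of iGCB against naive (points) with its standard error (bars) for the 9 genes in WT (green) and KO (yellow); filled points have an adjusted p under 0.05. Cr2, Bank1 and Syk lie farthest to the left in WT, and Bank1 lies at -6.23 in WT and -3.54 in KO.

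Markers of other cells also differed between stages. Myeloid markers summed to 55.1 to 365 CPM in naive and 24.99 to 80.3 CPM in iGCB libraries, and erythroid and platelet markers to 25.2 to 215 and 0.409 to 5.82 CPM. Summed T cell markers were higher in iGCB (259 to 418 CPM) than in naive libraries (11.4 to 54.2 CPM), with 0 of 8 at 0 in any group. That sum was mostly Thy1 (355 ± 64.5 CPM in iGCB WT), while the defining gene Cd3e was at 0.267 ± 0.236 CPM there. The part of these cells in the stage differences was not tested.

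A further 6 groups of receptor signalling genes hold 76 listed genes, of which 75 were tested. In naive KO against WT 0 of 75 passed the threshold in edgeR or DESeq2, beside 0.0476% of all genes in edgeR, with 5 at an unadjusted p under 0.05 (median log2 fold change -0.18, against -0.05 over all genes). The smallest unadjusted p belonged to Prkcb, protein kinase C beta, at -0.57 (SE 0.18, adjusted p = 0.636). In iGCB KO against WT 1 of 75 passed, a share near the 1.27% of all genes (median 0.06). This was Lck, a Src-family kinase of T cells and some B cells, at 23.8, 16.9 and 23.8 CPM in WT and 60.5, 67.9 and 66.3 CPM in KO. The genotypes did not overlap, and the log2 fold change was 1.60 (SE 0.22, edgeR adjusted p = 0.00673), with an adjusted p of 0.0530 without iGCB KO 2. T and NK cells also express Lck: the 7 T cell markers other than Thy1 summed to 2.98 to 4.17 CPM in iGCB WT and 1.48 to 3.03 CPM in iGCB KO, of which Trbc2 was at 0 to 0.0584 CPM in WT and 0.285 to 0.353 CPM in KO. The 4 summed NK markers lay at 7.24 to 13.3 CPM in WT and 17.7 to 23.2 CPM in KO, and the part of such cells in the Lck value was not tested.

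From naive to iGCB, 9 of the 75 rose and 44 fell in WT cells, and 10 rose and 39 fell in KO cells. Over all genes 31.7% were called lower in WT and 31.4% in KO (56.4% and 56.2% in either direction), and the median in WT was -0.25. Calcium and protein kinase C genes had 15 of 20 lower and 1 higher in WT (median -1.47). Malt1, part of the complex that carries the signal to NF-kappa B, changed by -3.69 (SE 0.32), and Nfatc1, a calcium-responsive transcription factor, fell by 2.93 (SE 0.16). Other proximal kinases had 7 of 9 lower and 1 higher: Blk, a B cell Src-family kinase, fell by 2.26 (SE 0.18).

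Beside the 31.7% of all genes called lower in WT, adaptors had 8 of 18 lower and 2 higher, with Cblb, a ubiquitin ligase that restrains receptor signalling, at -5.36 (SE 0.26) and Sh3kbp1, a partner of Blnk, at -3.14 (SE 0.17). PI3K and Vav-Rac genes had 4 of 12 lower, a share near that of all genes, and 2 higher (median -0.09, against -0.25). Pik3r1, a regulatory subunit of PI3K, fell by 1.77 (SE 0.17), and Akt1 was at 0.89 (SE 0.24), a call lost without naive WT 2 (adjusted p = 0.0821). In the coreceptor group 3 of 6 fell and 1 rose, against 31.7% of all genes called lower and 56.4% in either direction, with Cd81, a tetraspanin partner of Cr2, higher by 1.17 (SE 0.17) while Cr2 fell.

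Of 10 transcription factors known to act on Cd79a and Cd79b, 7 fell and 2 rose from naive to iGCB in WT cells. That stands beside 31.7% of all genes called lower and 56.4% in either direction. Ebf1, which opens the Cd79a promoter in early B cells, fell by 3.67 (SE 0.27), from 1108 ± 406 to 87.2 ± 17.4 CPM. Pax5, the B lineage commitment factor, fell by 2.04 (SE 0.19), from 1986 ± 241 to 481 ± 21.5 CPM. Ets1 fell by 2.11 (SE 0.15). The 2 that rose were Pou2af1, a B cell coactivator (1.76, SE 0.27), and Tcf3, which encodes the E2A proteins (1.09, SE 0.24).

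The genes with profiles most like those of 3 members were taken as the smallest root mean square difference of centred log2 CPM over the 10 libraries among 7046 protein-coding genes. For Cd79a they were the MHC class I genes H2-D1 (0.24), H2-Q4 (0.25) and H2-K1 (0.31). H2-D1 lay at 1077 ± 205 CPM in naive WT cells and 480 ± 37.3 CPM in naive KO cells, and at 826 ± 192 and 427 ± 26.0 CPM in the iGCB groups. Because class I genes resemble each other closely, how reads were shared out among them is uncertain. For Bank1 they included Zfp831 (0.69) and Lrrk2 (0.73). Lrrk2, which encodes a kinase, was at 18.7 ± 8.81 CPM in iGCB WT and 43.3 ± 9.25 CPM in iGCB KO. For Cr2 they were the immediate early gene Nr4a1 (0.36), Rasgef1b (0.40) and the phosphatase gene Ptprj (0.47), all 3 at or below 6.55 CPM on average in iGCB cells.

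Because Pcbp1 binds C-rich RNA, runs of CCCC (overlapping matches, sense strand) were counted in the longest protein-coding transcript of each gene. Cd79a held 26 in 1457 bases, or 17.8 per kb, at percentile 99.0 of the 13864 tested protein-coding genes (median 4.37 per kb). Bank1 held 5 in 3268 bases, or 1.53 per kb, at percentile 11.1. Cd79b was at 6.29 per kb, Syk at 7.27, Blnk at 7.15, Plcg2 at 8.84, Btk at 3.54, Cr2 at 3.22 and Lyn at 2.89. The count follows base composition, with 31.2% C in the Cd79a transcript, 22.7% in that of Bank1 and a median of 24.7%. Binding of Pcbp1 to these transcripts was not measured, and its part in the KO differences was not tested.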

How the data were processed

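RNA-seq was made from total RNA with an mRNA library kit, per the labels' protocols. The deposited values were raw counts per gene symbol, made by the authors, who name featureCounts and mm10 in the submitters' processing notes. Which aligner, annotation, versions and strand setting were used is not given in the sources used here. Among counts of 1 to 20, 17.7% to 26.9% were odd, so reads of a pair appear to be counted singly and a count is not an independent fragment. The members and lists were chosen with earlier results of these data known.

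Genes were filtered with filterByExpr by group (minimum count 10), scaled with TMM and fitted in 1 quasi-likelihood model over the 4 groups (edgeR 4.0.16, R 4.3.3, 6 residual degrees of freedom). All tests were two-sided, and p-values were adjusted by Benjamini-Hochberg over the 21010 genes, with a threshold of 0.05. SE is the absolute log2 fold change over the square root of F. CPM use TMM-scaled totals and are mean ± SD; CPM per kb divide by the union of exons in GENCODE M21 (mm10), the source of positions. Profiles used log2 CPM with a prior count of 2 and genes with a mean of at least 4. DESeq2 1.42.0 was an alternative. The fit was also run on simulated counts with the same baseline at both stages and the same dispersion for every gene. Only KO against WT was checked there. That run therefore says nothing about the stage comparisons, the difference of KO effects or the spread of the naive libraries.

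The text names all 9 members, up to 4 called genes of each list by size of change, the 5 nearest tested genes on each side of Cd79a and Bank1 as counts, and the 3 genes nearest in profile to Cd79a, Bank1 and Cr2. Arhgef1, Gm5281, Gm31243, Ppp3ca, Trbc2, Prkcb, Thy1, Gzma, Prf1, Ncr1 and Klrb1c were named after their values were seen. Some genes that this rule selects are not reported here.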

Additional observations from a re-analysis of the deposited data

How the results depend on the processing

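Across 17 alternatives for each comparison, Bank1 in iGCB KO against WT and Cr2, Syk, Lyn, Btk, Blnk and Bank1 in both stage comparisons stayed past the threshold. The library numbers were not taken as pairs, because the labels do not say what same-numbered libraries share. Deviations of same-numbered WT and KO libraries from their group means correlated at 0.67 in naive cells, where WT 1 and KO 1 were female. With 2 naive libraries a genotype, both naive pairs necessarily give the same value. In iGCB cells the correlations were 0.54, -0.18 and 0.02 (7379 genes). With the replicate block on these numbers, 1 member (Bank1) passed in the difference of KO effects, against 0 without it, and 7 and 6 passed in iGCB against naive for WT and KO, against 8 and 7. That difference also gave 1 with DESeq2, with no filter and in the male libraries alone (chosen after seeing the data), and 0 to 1 with a library left out. In naive KO against WT the count was 0 with the 2 groups alone and 0 to 1 with a library left out, in iGCB KO against WT 1 to 2, and in iGCB against naive WT 8 to 9. Of the 75 pathway genes, DESeq2 called 5 in iGCB KO against WT and 2 in the difference of KO effects, against 1 and 0 in edgeR. Over all genes, DESeq2 called 168 in naive KO against WT, 840 in iGCB KO against WT and 233 in the difference, against 10, 266 and 7 in edgeR, and the replicate block gave 31, 589 and 74. Pcbp1 in naive cells passed in 7 of 17 alternatives, with 0.0165 as its adjusted p under the replicate block. Among members not past the threshold the sign changed in places, and the cause was not tested. Library size alone gave 0.073 for Btk and 0.079 for Blnk in naive KO against WT and -0.0054 for Plcg2 in the difference, where the median of all genes moved by 0.12 and -0.14. The male libraries gave 0.35 for Cd79b, -0.051 for Cr2, 0.019 for Lyn, 0.22 for Btk and 0.019 for Plcg2 in naive KO against WT, 0.38 for Cd79b in iGCB against naive WT and -0.067 for Plcg2 in the difference. With a library left out, naive KO against WT ran from -0.70 to 0.49 for Cd79b, -0.26 to 0.42 for Cr2, -0.50 to 0.10 for Lyn, -0.37 to 0.28 for Btk, -0.14 to 0.016 for Blnk, -0.40 to 0.047 for Plcg2 and -0.088 to 0.52 for Bank1. In iGCB KO against WT it ran from -0.11 to 0.016 for Plcg2 and -0.16 to 0.022 for Arhgef1, and in iGCB against naive WT from -0.81 to 0.38 for Cd79b. The difference ran from -0.026 to 1.16 for Cd79b, -0.0092 to 0.67 for Cr2, -0.40 to 0.24 for Btk and -0.096 to 0.35 for Plcg2. With 2 naive libraries a genotype, the spread between libraries limits what naive KO against WT can show.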
